A study of Mus musculus with 31 samples.

Results

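The genes described here are 48 genes of the synaptic vesicle and of the machinery that docks, primes, fuses and recovers it. They were named as a list and not selected by a cut on measured values, but earlier results of these data were known. Counts of members set beside shares of all genes below therefore describe this list and are not an independent test of it. All 48 were found among the 20436 gene symbols of the deposited count tables, and all 48 passed the filter on low counts in both assays. They were read in mouse cortex of 4 genotypes at postnatal days 29 to 34: wild type (WT), deficient in Fmr1 (FXS in the labels, for fragile X syndrome), deficient in Rps6kb1, the gene of the ribosomal protein S6 kinase S6K1 (S6K1 in the labels), and deficient in both genes (DKO). Polyadenylated mRNA was sequenced in 4 libraries per genotype (RNA below). Ribosome profiling, which sequences the stretches of mRNA that ribosomes protect from nuclease (footprints, RPF below), was done in 4 WT, 5 FXS, 3 S6K1 and 3 DKO libraries. Strain, sex and the construction of the alleles are not given in the sources used here, nor is it stated whether an RNA and an RPF library came from the same animal, or what separates replicates of 1 genotype. The p-values below therefore measure the spread between these libraries. Whole cortex holds many cell types, so a level here is an average over them.

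By role, 17 members are membrane proteins of the vesicle, 7 attach to its surface, 8 belong to the fusion machinery, 11 to the active zone and 5 to endocytosis. At a presynaptic terminal, vesicles are loaded with transmitter, held near the membrane by synapsins and Rab3 proteins, docked and primed at the active zone by RIM, Munc13, ELKS and liprin scaffolds, and fused by the SNARE proteins when synaptotagmins bind calcium, after which dynamin and its partners retrieve the membrane. FMRP, the product of Fmr1, is an RNA-binding protein that associates with many neuronal mRNAs and with ribosomes, and long synaptic mRNAs are prominent among its targets. S6K1 phosphorylates ribosomal protein S6 and other factors of translation.

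Promoter sequences are shown for 4 of the members whose mRNA was called as higher in the DKO cortex, to let the reader see these start regions. A link between their letters and the mRNA changes was not tested. The RefSeq promoter table of build GRCm38.p6 held a window of 250 bases before to 50 bases after the annotated start for 39 of the 48 members. Capitals mark matches, on either strand, to 3 motifs: GGGCGG (the GC box), TCAGCACC (the start of the RE1 element bound by the repressor REST) and TGACGTCA (the cyclic AMP response element). A match on the other strand shows as the reverse complement, overlapping matches were kept, and the printed strand is that of the gene. Syn1 encodes synapsin I, Syp synaptophysin, Slc17a7 the vesicular glutamate transporter VGLUT1 and Ppfia3 the active zone scaffold liprin-α3.
Syn1 (chrX:20920869-20921168, minus strand): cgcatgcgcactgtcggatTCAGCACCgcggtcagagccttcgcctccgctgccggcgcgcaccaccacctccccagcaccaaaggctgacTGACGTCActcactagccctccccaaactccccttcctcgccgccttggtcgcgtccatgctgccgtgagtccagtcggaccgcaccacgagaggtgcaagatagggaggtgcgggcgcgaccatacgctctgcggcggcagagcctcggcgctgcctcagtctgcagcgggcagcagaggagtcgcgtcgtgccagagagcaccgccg
Syp (chrX:7638330-7638629, plus strand): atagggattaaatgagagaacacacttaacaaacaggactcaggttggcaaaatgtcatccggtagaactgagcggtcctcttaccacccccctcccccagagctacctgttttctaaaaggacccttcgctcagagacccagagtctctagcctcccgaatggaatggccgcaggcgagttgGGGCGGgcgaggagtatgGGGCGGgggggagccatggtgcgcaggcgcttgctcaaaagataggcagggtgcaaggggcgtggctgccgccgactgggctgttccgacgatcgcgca
Slc17a7 (chr7:45163671-45163970, plus strand): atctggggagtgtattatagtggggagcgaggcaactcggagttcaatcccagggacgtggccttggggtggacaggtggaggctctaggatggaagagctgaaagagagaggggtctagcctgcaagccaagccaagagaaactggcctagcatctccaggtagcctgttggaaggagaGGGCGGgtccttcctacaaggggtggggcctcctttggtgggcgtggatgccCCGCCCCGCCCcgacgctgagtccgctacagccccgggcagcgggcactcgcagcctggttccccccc
Ppfia3 (chr7:45366970-45367269, minus strand): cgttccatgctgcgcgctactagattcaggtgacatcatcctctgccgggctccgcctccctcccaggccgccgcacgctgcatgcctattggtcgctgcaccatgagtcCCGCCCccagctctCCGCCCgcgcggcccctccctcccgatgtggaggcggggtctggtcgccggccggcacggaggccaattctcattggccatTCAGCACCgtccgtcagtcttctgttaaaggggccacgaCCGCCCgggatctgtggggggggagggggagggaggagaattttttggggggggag
The GC box was present in 33 of the 39 member windows (84.6%), against 38.2% of the 27025 genes in the table, a gene with several windows counting once. Among the members whose mRNA passed the test in DKO it was in 7 of 8, and among the others in 26 of 31. The RE1 start was in 4 of 39 windows (10.3%, against 1.85% of genes), those of Napa, Ppfia3, Syn1 and Unc13a. The cyclic AMP response element was in 3 of 39 (7.69%, against 2.03%), those of Napa, Sh3gl2 and Syn1. TATAAA, also searched on either strand, was in 2 of 39 (5.13%, against 15.7%). These are matches of letters, with no test made of them. The 27025 genes were not limited to those tested here, so the shares are not matched for expression in cortex.

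RNA libraries held 12.1 to 17.3 M counts over coding sequence (M stands for 1e+06 counts, median 14.1 M) and RPF libraries 16.6 to 34.9 M (median 24.2 M). The members took 1.61% to 1.97% of the RNA counts and 2.32% to 2.76% of the RPF counts, and the lowest count of any member in any library was 78 (Sv2c, RNA). Levels are counts per 1e+06 counts of the library (CPM), scaled within each assay. They follow gene length, so they are compared between libraries and not between genes. The genes that the genotypes name matched the labels in footprints: Fmr1 lay at 105 to 138 CPM in WT, 7.03 to 8.68 in FXS and 8.03 to 12.8 in DKO, and Rps6kb1 at 26.1 to 31.7 in WT, 7.62 to 12.8 in S6K1 and 11.27 to 11.97 in DKO. In mRNA, Rps6kb1 overlapped between WT (39.5 to 55.5 CPM) and S6K1 (28.2 to 43.7 CPM). Batch numbers come from the labels. RNA batches 5 to 8 each held every genotype once, and the batch 5 libraries stood low for vesicle membrane genes in every genotype. RPF batches 1 to 4 were unbalanced, since batch 1 held no WT library, and DKO and WT met only in batches 3 and 4. Every marker gene of the pan-neuronal list was detected in both assays, as the label cortex implies, and the markers of other brain regions and cell types were detected too.

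In wild-type cortex, the members carried more footprints per mRNA than most genes did, and the active zone scaffolds carried fewer than the other members. In the ratio of the mean WT RPF level to the mean WT RNA level, the growth of counts with gene length cancels, apart from errors of counting. Other effects of length on this ratio were not tested. The median ratio over the 48 members was 1.56 (0.64 on the log2 scale), against 0.785 (-0.35) over the 13654 genes tested in both assays. By role the median log2 ratio was 1.37 for proteins on the vesicle surface, 0.94 for endocytosis, 0.75 for fusion, 0.49 for vesicle membrane and -0.55 for the active zone. Given that RNA and RPF libraries were not tied to the same animals, this ratio is 1 value per genotype, with no error of its own.

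Close relatives differed widely in this ratio. Unc13a, which encodes Munc13-1, the main priming factor of glutamatergic synapses, stood at 0.63 in log2, its relative Unc13b at -0.55, and Unc13c at -2.91, the lowest of all members and at percentile 2.8 of all genes. The long scaffolds Rims1 and Rims2, which tether vesicles and calcium channels, stood at -0.86 and -1.19, while Rims3 and Rims4, which encode short forms that hold only the C-terminal domain of the family, stood at 0.20 and 0.71. Among the transporters that fill vesicles with glutamate, Slc17a6 (VGLUT2) had -0.03 and Slc17a7 (VGLUT1) -1.72. The highest ratios were those of Rab3c, a small GTPase on vesicles, at 2.78 (percentile 99.6), of Syn3 (synapsin III) at 2.70 and of Sv2c, a vesicle glycoprotein, at 2.12. The low values of Syt3 (-1.87) and Syt7 (-1.69), both calcium sensors, show that short proteins were found at both ends.

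**Figure D1:**
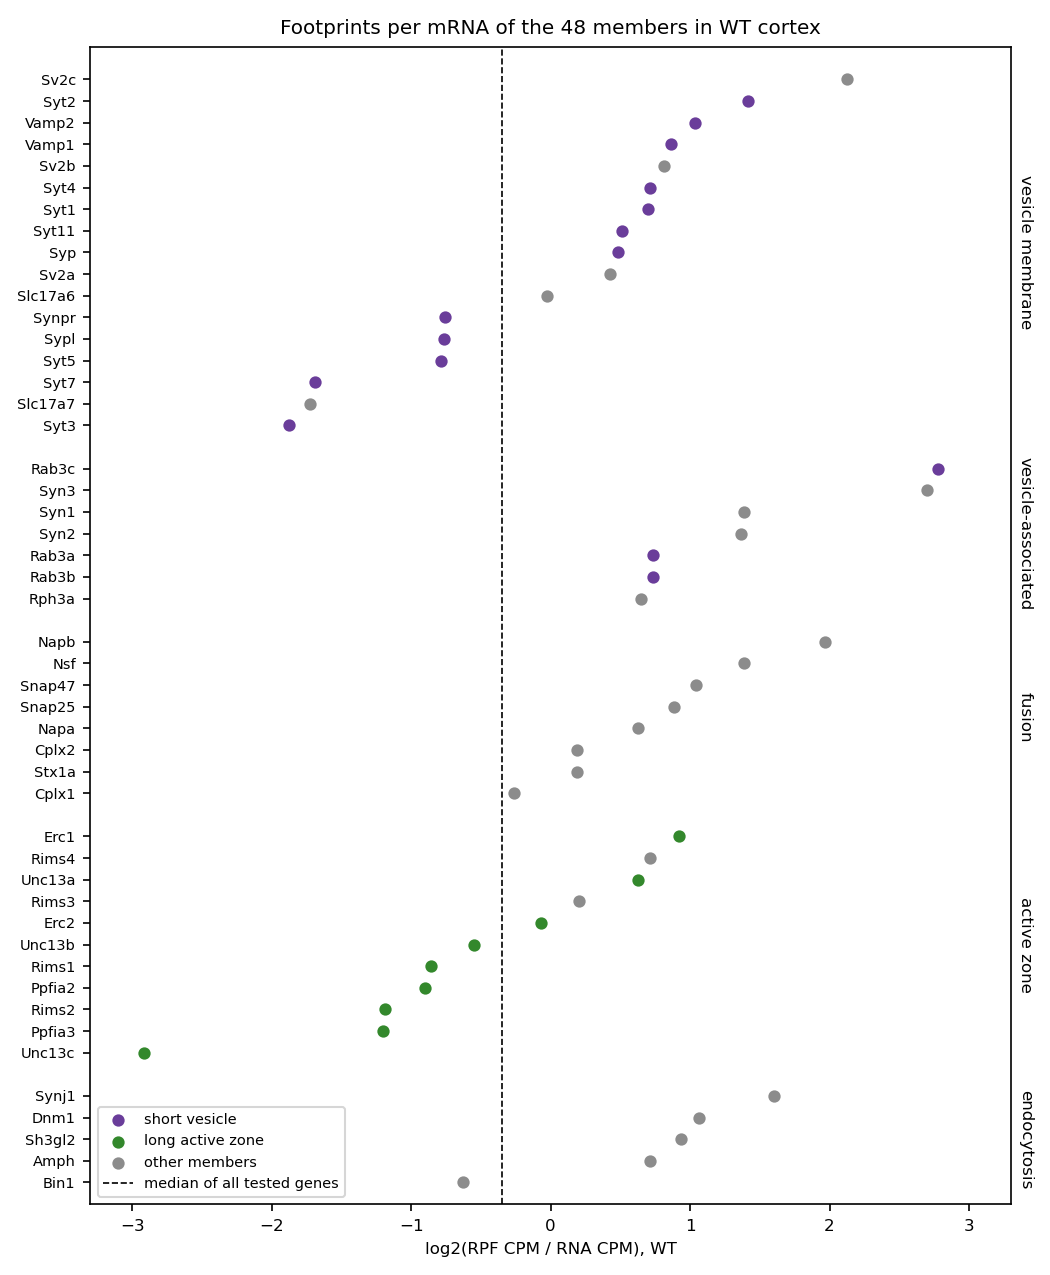
Log2 ratio of WT footprint CPM to WT mRNA CPM (horizontal axis) for each of the 48 members, grouped by role, with short vesicle genes in purple, long active zone genes in green and the other members in grey. The dashed line is the median of all tested genes at -0.35, and the long active zone genes lie further left (median -0.86) than the short vesicle genes (median 0.70).

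Loss of both genes went with more mRNA of vesicle and release genes. In DKO against WT, 10 of the 48 members rose in mRNA, none fell, and 40 of 48 had an estimate above 0. Most mRNA estimates also lay above 0 in FXS and in S6K1, against the same WT libraries. Between DKO and FXS, 0 members were called in mRNA. The genes that rose span the cycle: the glutamate transporter Slc17a7, the vesicle proteins Syp, Sv2a and Vamp2, the surface proteins Syn1 and Rph3a, the scaffolds Ppfia3, Rims3 and Rims4, and the endocytic GTPase Dnm1. Their estimates ran from 0.24 to 0.49 on the log2 scale (1.18 to 1.40-fold). The test was edgeR's quasi-likelihood test with batch as a term and Benjamini-Hochberg adjustment over all 14215 genes, which called 5.23% of them in either direction and 3.17% as higher. The median estimate was 0.11 over the members and -0.0033 over all genes, and 21 members (43.8%) reached an unadjusted p below 0.05, 19 of them higher, against 22.3% of all genes. In a tissue, more cells of a type and more RNA per cell cannot be told apart. The 10 pan-neuronal markers moved alongside: all 10 had estimates above 0 (median 0.16), 1 of them rose (Tubb3), and their summed level was 3169 to 3467 CPM in WT and 3611 to 3912 CPM in DKO. Endothelial markers lay the other way, with all 9 below 0 (median -0.34), 1 that fell and a summed level of 51.1 to 161 CPM in WT and 31.5 to 106 CPM in DKO, and the 5 choroid plexus markers tested were all below 0 with none called (median -1.22, summed level 8.99 to 589 CPM in WT and 4.97 to 187 CPM in DKO). The part of these lists in the members' rise was not tested. Within batches 5, 6, 7 and 8 the median difference between the DKO and the WT library over the members was 0.14, 0.10, 0.09 and 0.12. Over all genes it was 0.0062, 0.0026, 0.0066 and 0.0037. In all 4 batches 21 members were higher in DKO, a count for which the share over all genes was not computed. Without the batch term 0 members were called, beside 0.0141% of all genes. Leaving out 1 library left from 1 (WT replicate 2 or DKO replicate 3, beside 0.496% and 0.699% of all genes) to 13 (WT replicate 4, beside 7.64%).

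**Figure D2:**
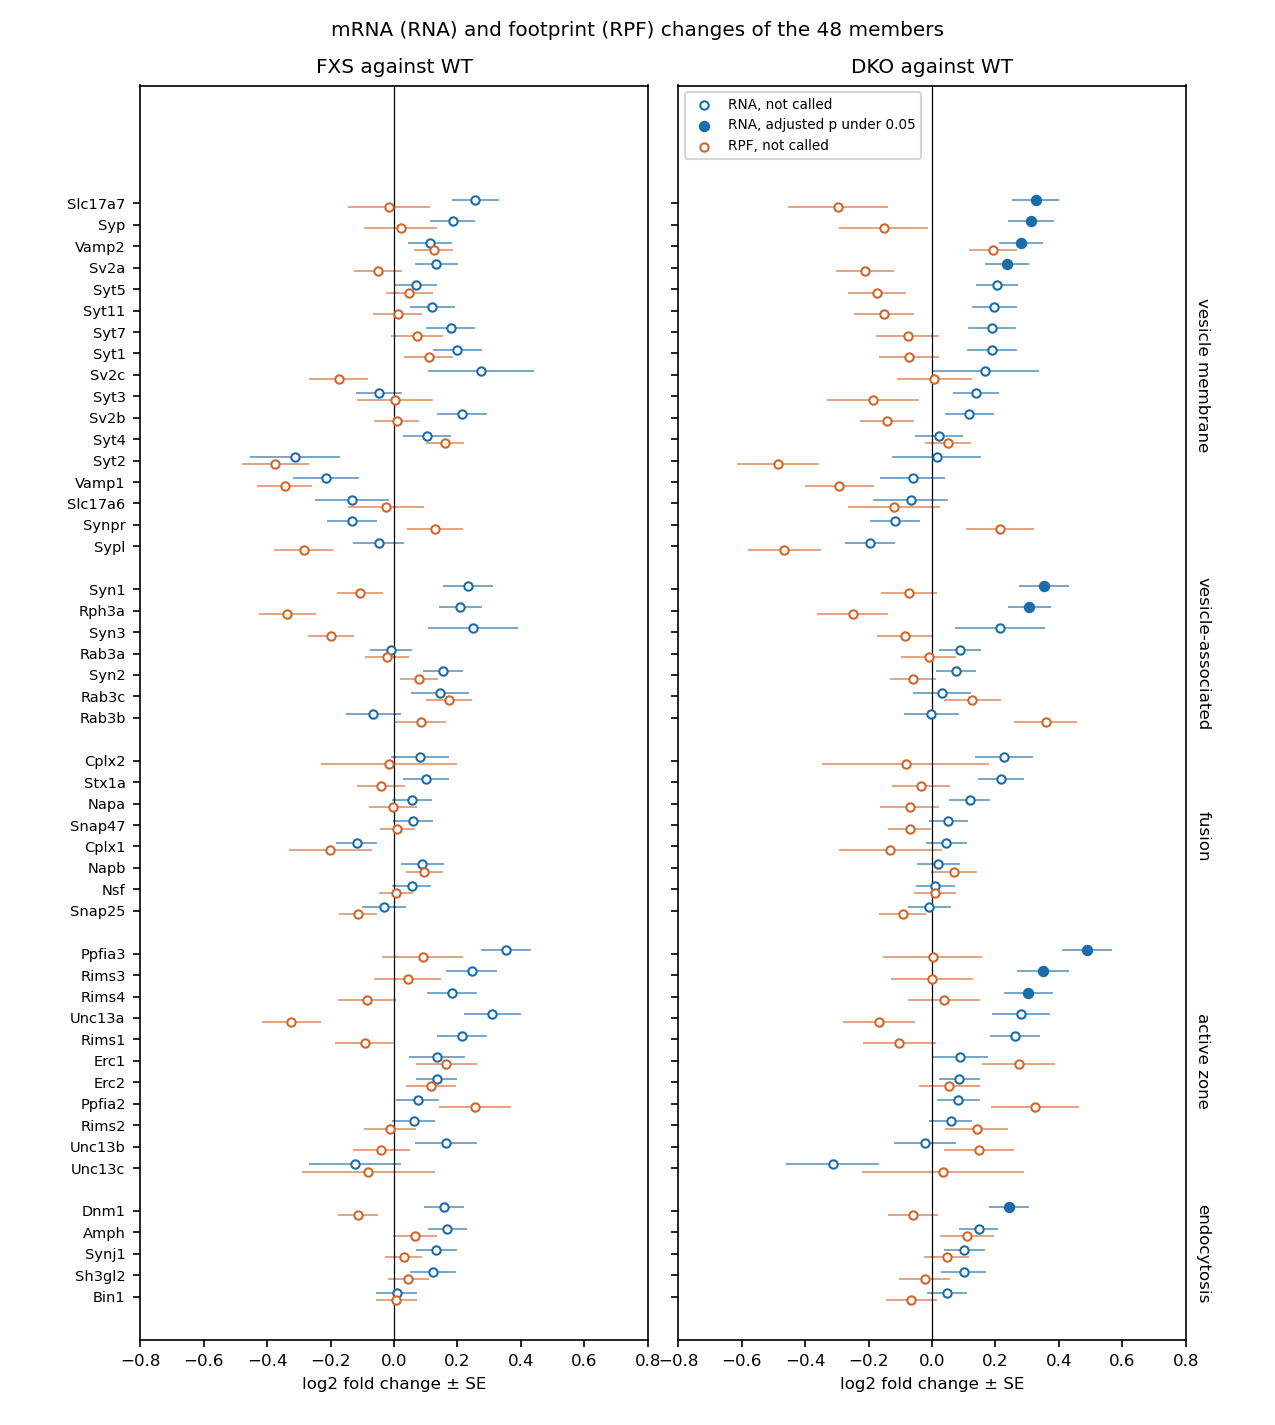
Log2 fold change with its standard error (horizontal axis) of the 48 members in mRNA (blue) and footprints (orange), for FXS against WT and DKO against WT, by role. Filled points have an adjusted p below 0.05 and are the 10 mRNA values in DKO, while no footprint value passed and most mRNA estimates lie right of 0 (37 of 48 in FXS and 40 of 48 in DKO).

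Among vesicle membrane genes, 4 of 17 rose in DKO mRNA, and the median over the role was 0.17. Syp encodes synaptophysin, an abundant tetraspan protein of the vesicle. Its mRNA was at 499, 868, 932 and 900.5 CPM in the WT libraries of batches 5 to 8 and at 593, 1131, 1144 and 1131 CPM in the DKO libraries of the same batches. The batch 5 library was low in both genotypes, and within each batch DKO was above WT, so the ranges overlap only through batch 5. The difference was 0.31 ± 0.0716 (log2 ± SE, 1.24-fold, edgeR adjusted p = 0.0155). Slc17a7 was at 1446, 1961, 2159 and 2309 CPM in WT and 1587, 2652, 2936 and 2843 CPM in DKO, again higher in DKO in all 4 batches, with the batch 5 library of DKO inside the WT range. It rose by 0.33 ± 0.0750 (edgeR adjusted p = 0.0155), while Slc17a6, the transporter typical of thalamic and other subcortical inputs, was at 13.5, 28.5, 32.4 and 24.4 CPM in WT and 14.6, 22.6, 30.4 and 25.8 CPM in DKO with overlapping ranges (-0.07 ± 0.117, edgeR adjusted p = 0.778). Thalamus markers, Slc17a6 among them, had a median of -0.50 in mRNA, with a summed level of 117 to 238 CPM in WT and 89.3 to 163 CPM in DKO and none of 8 called.

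The SNARE protein genes Vamp2 and Vamp1 encode synaptobrevin-2, the main form in forebrain, and synaptobrevin-1. Vamp2 was at 350.2, 337, 338 and 339 CPM in WT and 429, 419, 432 and 379.9 CPM in DKO, so every DKO library was above every WT library. It rose by 0.28 ± 0.0695 (edgeR adjusted p = 0.0225). Vamp1 was at 33.3, 32.1, 26.8 and 27.1 CPM in WT and 36.5, 28.00, 28.02 and 22.7 CPM in DKO, with overlapping ranges and a difference of -0.06 ± 0.102 (edgeR adjusted p = 0.771). Sv2a, a vesicle glycoprotein and the binding site of the antiepileptic levetiracetam, was at 205, 408, 397 and 376 CPM in WT and 234, 483, 454 and 470.1 CPM in DKO. It was higher in DKO within each batch and rose by 0.24 ± 0.0682 (edgeR adjusted p = 0.0451), a call that was lost on leaving out any 1 of the 8 libraries compared.

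The calcium sensors of fast release did not pass the test. Syt1 mRNA was at 483, 713, 836 and 667 CPM in WT and 565, 850.0, 808 and 834 CPM in DKO (0.19 ± 0.0776, edgeR adjusted p = 0.150), with overlapping ranges and the DKO library below WT in batch 7. Syt2, its counterpart in parvalbumin interneurons and hindbrain, was at 8.08, 16.2, 11.3 and 11.4 CPM in WT and 10.8, 11.7, 12.6 and 11.04 CPM in DKO (0.01 ± 0.140). Pvalb, the marker of those interneurons, fell by 0.39 in DKO mRNA (edgeR adjusted p = 0.0235) and by 0.60 in FXS mRNA (edgeR adjusted p = 0.00927), and was the only 1 of the 8 genes of the parvalbumin interneuron list to be called in either. The list as a whole had a median of -0.01 in DKO, with 4 of 8 above 0, and of -0.10 in FXS, with 2 of 8 above 0. Of the remaining synaptotagmins, Syt5, Syt7 and Syt11 had estimates of 0.20, 0.19 and 0.20, and Syt3 and Syt4 of 0.14 and 0.02, with edgeR adjusted p from 0.0737 to 0.898. Sypl (synaptophysin-like 1) stood at the low end of the role, at -0.20 (edgeR adjusted p = 0.149), and Synpr (synaptoporin), Sv2b and Sv2c were at -0.12, 0.12 and 0.17.

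On the vesicle surface, 2 of 7 genes rose, Syn1 and Rph3a. Syn1, whose product tethers vesicles in the reserve pool, was at 463, 619, 618 and 615 CPM in WT and 626, 868, 772 and 689.6 CPM in DKO, with every DKO library above every WT library. The rise was 0.35 ± 0.0778 (1.28-fold, edgeR adjusted p = 0.0132). Rph3a, rabphilin, an effector of Rab3, was at 339.8, 419, 447 and 414 CPM in WT and 378, 556, 562 and 522 CPM in DKO. Its ranges overlapped through the batch 5 library of DKO, each batch had DKO above WT, and it rose by 0.31 ± 0.0675 (edgeR adjusted p = 0.0132). Syn2 and Syn3 had estimates of 0.08 and 0.21, and the GTPases Rab3a, Rab3b and Rab3c of 0.09, -0.0017 and 0.03, none of them called.

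Vamp2, a SNARE protein gene that rose, was listed under vesicle membrane. None of the 8 genes listed under fusion passed the test in DKO mRNA, and their median was 0.05. By edgeR 2 of them, Stx1a and Cplx2, had an unadjusted p below 0.05, DESeq2 called 1 (Stx1a) and limma voom 0. Stx1a, syntaxin-1A of the plasma membrane, was at 416, 359, 389 and 387 CPM in WT and 461, 434, 472 and 436 CPM in DKO, so its libraries did not overlap (0.22 ± 0.0722, edgeR adjusted p = 0.0781). Complexins clamp and promote fusion of the assembled SNARE complex. Cplx1 was at 338, 348, 331 and 323 CPM in WT and 372, 348, 342 and 322 CPM in DKO (0.05 ± 0.0651), and Cplx2 at 225, 164, 193 and 222 CPM in WT and 249.7, 221, 256 and 213 CPM in DKO (0.23 ± 0.0907, edgeR adjusted p = 0.141), both with overlapping ranges. Snap25 and Snap47, the SNAP-25 family members listed, were at -0.01 and 0.05, and Nsf, Napa and Napb, which take spent SNARE complexes apart, at 0.01, 0.12 and 0.02.

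At the active zone, 3 of 11 genes rose, and 2 of them are the short forms of the RIM family. Ppfia3 had the largest estimate of all 48 members. It was at 235, 278, 314 and 326 CPM in WT, 259, 455, 363 and 412 in FXS, 256, 334, 334 and 339.6 in S6K1 and 299, 456, 468 and 407 in DKO, in the order of batches 5 to 8. Each DKO library was above the WT library of its batch, with within-batch differences of 0.35, 0.71, 0.58 and 0.32, and only the batch 5 library of DKO lay inside the WT range. The rise was 0.49 ± 0.0785 (1.40-fold, edgeR adjusted p = 0.00278), and it was called in 14 of 15 alternatives, all but the fit without the batch term (adjusted p = 0.324).

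Rims3 was at 44.5, 32.7, 34.8 and 36.1 CPM in WT and 58.9, 44.4, 44.5 and 41.3 CPM in DKO, with its highest value in batch 5 in both genotypes. The ranges overlapped, DKO was above WT in each batch, and Rims3 rose by 0.35 ± 0.0811 (edgeR adjusted p = 0.0166). Rims4 was at 36.7, 27.8, 35.6 and 33.2 CPM in WT and 41.3, 38.7, 42.02 and 41.9 CPM in DKO, with no overlap, and rose by 0.30 ± 0.0775 (edgeR adjusted p = 0.0259). The long forms did not pass: Rims1 was at 252, 247, 315 and 339 CPM in WT and 273, 382, 367 and 365 CPM in DKO (0.26 ± 0.0789, edgeR adjusted p = 0.0519), in overlapping ranges, and was called by DESeq2 and limma voom. Rims2 was at 155, 154, 167 and 160.4 CPM in WT and 151, 159, 177 and 179 CPM in DKO (0.06 ± 0.0679, edgeR adjusted p = 0.651). The difference between Rims1 and its short relatives was not tested. Among the priming factors, Unc13a was at 0.28 (edgeR adjusted p = 0.0741), Unc13b at -0.02 and Unc13c at -0.31 (edgeR adjusted p = 0.219). The ELKS scaffolds Erc1 and Erc2 were at 0.09 and 0.09 and liprin-α2 (Ppfia2) at 0.08.

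Of the endocytic genes, Dnm1, the neuronal dynamin that cuts vesicles from the membrane, was at 1324, 1627, 1710.2 and 1638 CPM in WT and 1649.6, 2082, 1873 and 1837 CPM in DKO. The DKO library was higher in each batch while the ranges overlapped, and Dnm1 rose by 0.24 ± 0.0623 (edgeR adjusted p = 0.0269). Amph (amphiphysin), Bin1, Synj1 (synaptojanin-1, which strips the clathrin coat by dephosphorylating its lipid) and Sh3gl2 (endophilin-A1) had estimates of 0.15, 0.05, 0.10 and 0.10, none of them called. Over all roles, Vamp2, Syn1, Stx1a and Rims4 were the 4 members (8.33%) with every DKO library above every WT library in mRNA, against 3.4% of all tested genes.

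**Figure D3:**
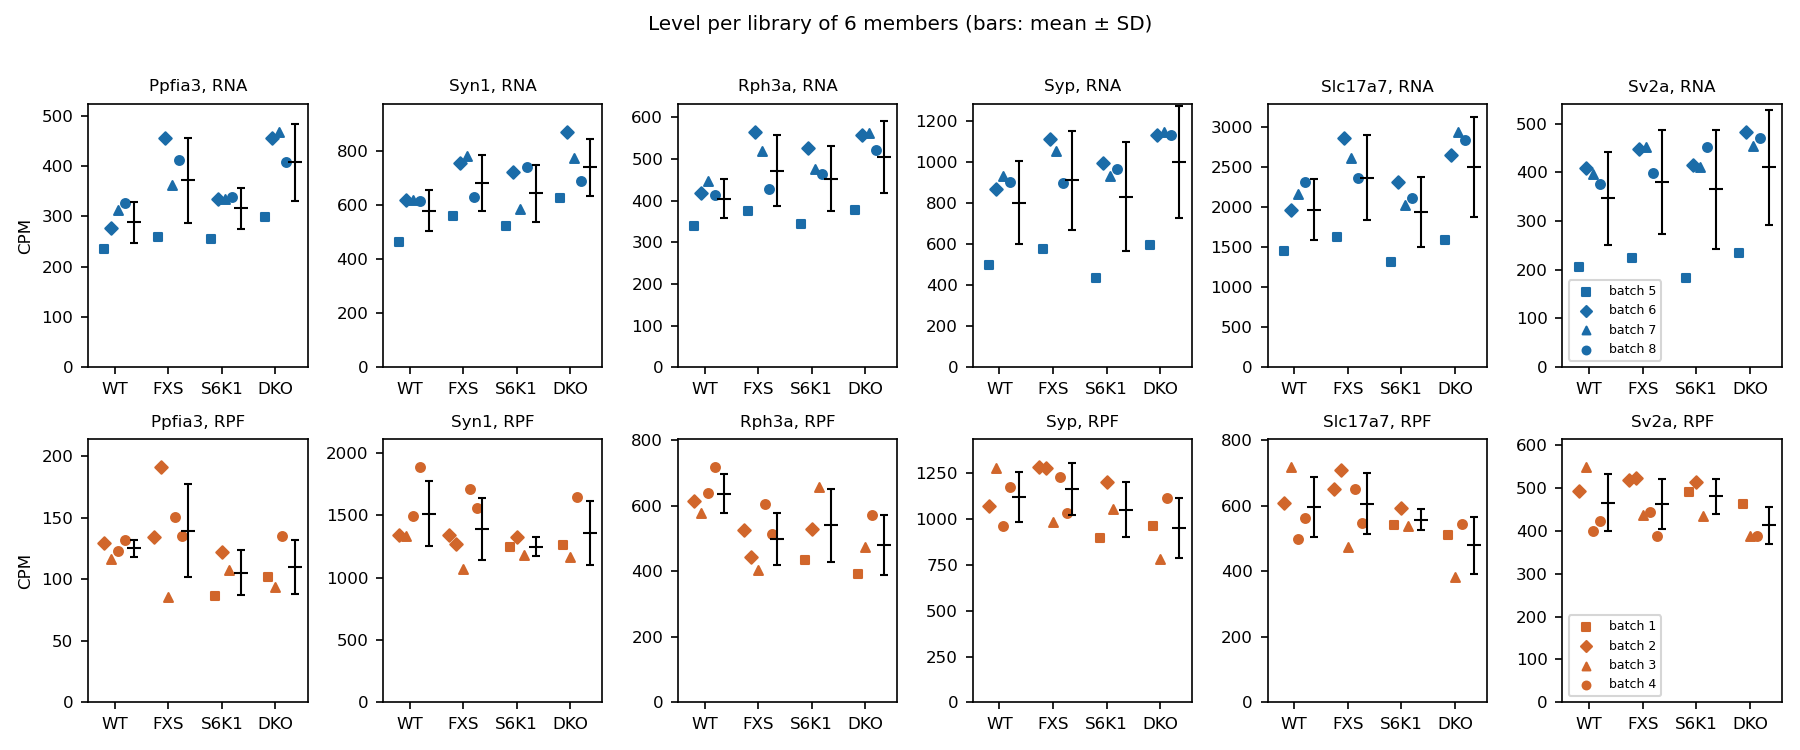
CPM (vertical axis, from 0) of 6 members in each RNA library (upper row, blue) and RPF library (lower row, orange) by genotype, with a marker shape for each batch and bars for the mean ± SD. The batch 5 squares lie lowest in each genotype of the upper row, and in the lower row the lowest DKO library lies below all WT libraries for each of the 6 genes.

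In footprints the members lay on both sides of 0 and none passed the test. In DKO against WT, edgeR called 0 of 48 members in RPF, against 0.366% of the 13953 genes tested. At an unadjusted p below 0.05 there were 9 members (18.8%, 4 higher and 5 lower), against 17.1% of all genes, DESeq2 called 3 members (Sypl and Syt2 lower, Rab3b higher), beside 2.08% of all genes, and limma voom 0, beside 0.351%. The median estimate over the members was -0.06, against -0.01 over all genes, and 18 of 48 were above 0. Of the 40 members with an mRNA estimate above 0, 26 had a footprint estimate below 0.

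The members with the smallest p in footprints were Sypl and Syt2. Sypl footprints were at 20.3, 28.3, 17.2 and 21.5 CPM in the WT libraries of batches 2, 3, 4 and 4 and at 29.3, 21.6 and 13.1 CPM in the DKO libraries of batches 1, 3 and 4. The DKO library of batch 1, which had no WT library beside it, was the highest of all 7, and the other DKO libraries were below WT within their batch (-0.39 and -0.56). The estimate was -0.47 ± 0.116 (edgeR adjusted p = 0.0992). Syt2 was at 33.6, 44.2, 23.9 and 23.3 CPM in WT and 28.5, 22.7 and 21.6 CPM in DKO, in overlapping ranges, with within-batch differences of -0.96 and -0.12 in batches 3 and 4 and an estimate of -0.49 ± 0.130 (edgeR adjusted p = 0.112). Rab3b had the largest positive estimate, 0.36 ± 0.0988 (edgeR adjusted p = 0.118), from 137, 125, 161 and 171 CPM in WT and 144, 176 and 178 CPM in DKO, which overlap.

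Every DKO footprint library lay below every WT library for 2 members, Vamp1 and Rph3a (4.17%, against 7.22% of all genes), and above for 3, Erc1, Ppfia2 and Synj1 (6.25%, against 9.07%). Both shares are under the background. The ELKS scaffold Erc1 was at 64.5, 48.3, 60.7 and 58.3 CPM in WT and 78.6, 76.6 and 67.8 CPM in DKO (0.27 ± 0.115, edgeR adjusted p = 0.253). Liprin-α2 (Ppfia2) was at 82.2, 67.8, 81.03 and 74.8 CPM in WT and 142, 105 and 85.2 CPM in DKO (0.32 ± 0.139, edgeR adjusted p = 0.262), the batch 1 library being the highest for both scaffolds. Vamp1 was at 50.6, 58.97, 54.3 and 53.5 CPM in WT and 42.4, 40.96 and 48.4 CPM in DKO (-0.29 ± 0.109, edgeR adjusted p = 0.211). Vamp2 was at 656, 701, 682 and 764 CPM in WT and 812, 712 and 863 CPM in DKO (0.19 ± 0.0758, edgeR adjusted p = 0.232), a positive estimate as in its mRNA. Ppfia3, the member that rose most in mRNA, was at 129, 116, 123 and 132 CPM in WT and 102, 93.9 and 135 CPM in DKO (0.0021 ± 0.155). Oligodendrocyte markers moved in these libraries as well: all 10 had RPF estimates below 0 in DKO (median -0.70), 4 of them fell, and their summed level was 2850 to 4124 CPM in WT and 1922 to 2721 CPM in DKO. Bin1, the member also known for its oligodendrocyte forms, was at -0.07, and the part of this shift in the members' values was not tested.

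The batch 1 libraries, 1 of DKO and 1 of S6K1, were the lowest of their genotype in footprints of the complexins and the short RIM forms. Cplx1 was at 234, 297, 325 and 259 CPM in WT, 135, 236 and 296 in S6K1 and 151, 195 and 300.2 in DKO, and Cplx2 at 219, 236, 289 and 175 CPM in WT, 91.8, 219 and 226 in S6K1 and 104, 142 and 269 in DKO. Rims3 was at 40.5, 47.2, 44.5 and 38.1 CPM in WT, 23.2, 40.9 and 52.5 in S6K1 and 25.3, 39.4 and 43.9 in DKO, and Rims4 at 50.4, 54.5, 57.1 and 56.2 CPM in WT, 25.5, 59.03 and 56.97 in S6K1 and 31.5, 44.8 and 59.2 in DKO. For all 4 genes the batch 1 values lay below every WT library, and the fitted DKO estimates with batch as a term were -0.13, -0.08, -0.00014 and 0.04. Batch 1 values of the long forms lay in or close to the WT range: Rims1 was at 183, 139.9, 169 and 145 CPM in WT and 138, 159 and 146 in DKO, and Rims2 at 73.5, 61.8, 75.02 and 69.8 CPM in WT and 75.5, 85.6 and 72.99 in DKO. Since batch 1 held no WT library, its DKO library enters the comparison with WT only through the S6K1 library beside it. Slc17a6 footprints were at 27.8, 29.1, 16.3 and 23.7 CPM in WT and 31.9, 23.5 and 21.7 CPM in DKO (-0.12 ± 0.146), and Syt1 footprints at 1122, 1362, 948 and 953 CPM in WT and 1718, 1027 and 987 CPM in DKO (-0.07 ± 0.0958), with overlapping ranges for both.

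Translational efficiency (TE) is the footprint change minus the mRNA change, estimated here in 1 edgeR model over all 31 libraries. In DKO against WT it fell for 5 of 48 members, Rph3a, Sv2a, Slc17a7, Syt5 and Syn1, and rose for none, while 4.85% of the 13654 genes tested were called in either direction and 3% as lower. All 5 are in the vesicle membrane (17 members) and surface (7 members) roles. DESeq2 and limma voom each called the endocytic Dnm1 as well. The median over the members was -0.19, against -0.02 over all genes, 38 of 48 were below 0, and 21 (43.8%, 19 of them lower) had an unadjusted p below 0.05, against 24.9% of all genes. Marker lists of cell types lay below 0 too: the pan-neuronal markers had a TE median of -0.18, with 9 of 10 below 0 and none called, and the oligodendrocyte markers one of -0.74, with all 10 below 0 and 7 that fell. Their part in the members' TE values was not tested. Of the 38 members below 0 in TE, 34 had an mRNA estimate above 0 and 26 combined that with a footprint estimate below 0. An mRNA estimate above 0 lowers TE by its definition, and the share over all genes was not computed for these counts. All 5 calls were lost without RPF batch 3 (an alternative chosen after seeing the data) and without the batch term. They were also lost without any 1 of WT replicate 2 or DKO replicate 2 in RPF, or WT replicate 2, WT replicate 3 or DKO replicate 3 in RNA. In these alternatives 0.0146% to 0.811% of all genes were called.

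Rph3a had the smallest adjusted p in TE. Its footprints were at 613, 576, 637 and 716 CPM in WT and 391, 474 and 573 CPM in DKO, every DKO library below every WT library, while its mRNA rose as given above. Within batches 3 and 4 the footprint difference was -0.28 and -0.24. TE fell by 0.56 ± 0.129 (log2 ± SE, edgeR adjusted p = 0.0218), the footprint estimate alone being -0.25 ± 0.111 (edgeR adjusted p = 0.269).

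For Slc17a7, footprints were at 608, 717, 499.8 and 562 CPM in WT and 509, 382 and 546 CPM in DKO. The lowest DKO library was that of batch 3 and the highest WT library was that of batch 3 too, so the within-batch differences were -0.91 and 0.04 in batches 3 and 4. TE was -0.63 ± 0.172 (edgeR adjusted p = 0.0402). For Sv2a too the larger within-batch difference was that of batch 3, at -0.49, with -0.09 in batch 4. Its footprints were at 492, 547, 399.6 and 424 CPM in WT and 462, 389 and 387 CPM in DKO. The TE of Sv2a was -0.45 ± 0.115 (edgeR adjusted p = 0.0305).

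Syt5, a synaptotagmin of synaptic and dense-core vesicles, was at 135, 139, 114 and 125 CPM in WT footprints and 121, 103 and 115 CPM in DKO footprints, with within-batch differences of -0.43 and -0.05 and a TE of -0.38 ± 0.110 (edgeR adjusted p = 0.0457). Syn1 footprints were at 1341, 1332, 1493 and 1882 CPM in WT and 1259, 1167 and 1644 CPM in DKO, overlapping, with within-batch differences of -0.19 and -0.03. Its TE was -0.43 ± 0.125 (edgeR adjusted p = 0.0458), most of it from the mRNA rise. Next below the threshold were Dnm1 at -0.31 (edgeR adjusted p = 0.0548) and Syp at -0.47 (edgeR adjusted p = 0.0738), whose footprints were at 1070.5, 1277, 960.0 and 1173 CPM in WT and 959, 785 and 1114 CPM in DKO. The highest TE estimates were those of Rab3b at 0.36, Unc13c at 0.35 and Synpr at 0.33, with edgeR adjusted p from 0.118 to 0.500.

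With Fmr1 alone lost, most mRNA estimates were above 0, and none of the 48 members passed the test. In FXS against WT, edgeR called 0 members in mRNA, against 0.155% of all genes, DESeq2 called 3 (6.25%, against 1.44% of all genes), limma voom 0 (0.162% of all genes), and a fit to the WT and FXS libraries alone 5 (10.4%, against 3.2%). At an unadjusted p below 0.05 there were 17 members (35.4%, 15 of them higher), against 12.7% of all genes, with 37 of 48 above 0 and a median of 0.12, against -0.0090 over all genes. The FXS and DKO comparisons share the WT libraries, so their values are given side by side and do not support each other. Ppfia3 was at 0.35 ± 0.0785 (edgeR adjusted p = 0.0603), from the values given above, in which 3 of 4 FXS libraries were above all WT libraries. Unc13a was at 204, 191, 214 and 272 CPM in WT and 258, 248, 320.1 and 259 CPM in FXS (0.31 ± 0.0911, edgeR adjusted p = 0.160), and Slc17a7 was at 0.26 ± 0.0750 (edgeR adjusted p = 0.150). Sv2c and Syn2 were the 2 members (4.17%, against 1.41% of all genes) with every FXS library above every WT library in mRNA.

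In FXS footprints, edgeR again called 0 members, against 0.165% of all genes, DESeq2 called 1 (0.817% of all genes) and limma voom 0 (0.115%). At an unadjusted p below 0.05 there were 9 (18.8%, 3 higher and 6 lower), against 9.87% of all genes, and the median was 0.0046. Vamp1 had the smallest p. It was at 39.3, 36.8, 45.9, 48.2 and 39.3 CPM in the FXS libraries of batches 2, 2, 3, 4 and 4, all below the WT libraries given above, and was the 1 member (2.08%, against 1.08% of all genes) set apart in this way (-0.35 ± 0.0877, edgeR adjusted p = 0.163). In S6K1, Vamp1 footprints were at 39.5, 41.2 and 55.6 CPM, which overlap WT. Unc13a footprints were at 413, 329, 292 and 328 CPM in WT and 316, 299, 215, 298 and 270.1 CPM in FXS (-0.32 ± 0.0929, edgeR adjusted p = 0.231), opposite in sign to its mRNA estimate. Syt2 and Sypl were at -0.37 and -0.28. Oligodendrocyte markers had a median of -0.58 in FXS footprints, and 3 of 10 fell.

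In TE of FXS against WT, 1 member fell, Rph3a, against 0.0952% of all genes called. Its mRNA was at 376, 564, 519 and 427 CPM in FXS (0.21, edgeR adjusted p = 0.197) and its footprints at 525, 443, 404, 605 and 513 CPM (-0.34, edgeR adjusted p = 0.188), with 4 of 5 libraries below all WT libraries. The within-batch footprint differences in batches 2, 3 and 4 were -0.35, -0.51 and -0.28. TE fell by 0.55 ± 0.115 (edgeR adjusted p = 0.0497), just inside the threshold, and the call was lost under 21 of 26 alternatives, among them 13 of the 17 that leave out 1 library. Unc13a had a larger estimate, -0.64 ± 0.142, and did not pass (edgeR adjusted p = 0.0766). The member median was -0.09, and 10 of 48 (20.8%, 9 of them lower) had an unadjusted p below 0.05, against 13.4% of all genes.

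No member was called with Rps6kb1 alone lost, while most estimates lay above 0 in mRNA and below 0 in TE. In S6K1 against WT, edgeR called 0 of 48 in mRNA (0.0211% of all genes), in footprints (0.00717%) and in TE (0.0293%), as did DESeq2 and limma voom. At an unadjusted p below 0.05 there were 4 members in mRNA (8.33%, against 7.37% of all genes), 3 in footprints (6.25%, against 8.74%) and 5 in TE (10.4%, against 7.51%). In mRNA 36 of 48 members were above 0 (median 0.07, against 0.0035 over all genes), in footprints 19 of 48 (median -0.03, against -0.02) and in TE 12 of 48 (median -0.12, against -0.02). These values share the WT libraries with the FXS and DKO values. Dnm1 had an mRNA estimate of 0.21 ± 0.0623 (edgeR adjusted p = 0.517), from 1575, 1972, 1779 and 1931 CPM in S6K1. In footprints Sypl was at -0.46 ± 0.120 and Synpr at 0.43 ± 0.111 (edgeR adjusted p = 0.285 for each). Synpr was at 66.7, 55.4, 50.6 and 56.3 CPM in WT and 82.9, 92.8 and 71.7 CPM in the S6K1 libraries of batches 1, 2 and 3, all above WT, as 1 member (2.08%) against 3.5% of all genes, and Syn1 was the 1 member (2.08%) with all S6K1 libraries below WT, against 6.41% of all genes. The mRNA estimate of Synpr was 0.0015.

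Adding the loss of Rps6kb1 to that of Fmr1 gave no call either. In DKO against FXS, 0 members were called by edgeR in mRNA (0.0281% of all genes), footprints (0.0143%) and TE (0.0146%), with no call by DESeq2 or limma voom. At an unadjusted p below 0.05 there were 4 members in mRNA (8.33%, against 9.81% of all genes), 2 in footprints (4.17%, against 6.19%) and 5 in TE (10.4%, against 8.36%). The mRNA of Ppfia3 differed by 0.14 between DKO and FXS, with a 95% interval of -0.02 to 0.29. The largest footprint estimate by p was that of Rab3b (0.27 ± 0.0967), and in TE that of Syt5 (-0.35 ± 0.109, edgeR adjusted p = 0.496). The interaction, which asks whether losing Fmr1 changes a gene by another amount when Rps6kb1 is also lost, was called for 0 members in mRNA (0% of all genes), footprints (0%) and TE (0%), by edgeR, DESeq2 and limma voom alike, with 0, 1 and 1 members at an unadjusted p below 0.05. For Ppfia3 mRNA it was 0.01, with a 95% interval of -0.21 to 0.22, which holds differences of either sign. That the DKO mRNA comparison passed the test for 10 members and the FXS comparison for none is therefore not a shown difference between these genotypes.

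Short vesicle proteins and long active zone proteins were compared as 2 lists drawn up by role, since protein lengths were not used here. The short list holds 15 genes (the 7 synaptotagmins, Syp, Sypl, Synpr, Vamp1, Vamp2, Rab3a, Rab3b and Rab3c) and the long list 9 (Rims1, Rims2, Unc13a, Unc13b, Unc13c, Erc1, Erc2, Ppfia2 and Ppfia3). In DKO mRNA the lists had the same median, 0.09 for each, with 2 of 15 short genes (Syp, Vamp2) and 1 of 9 long genes (Ppfia3) called. In DKO footprints the short median was -0.08 and the long median 0.05, a difference of -0.13, with no gene called in either list. In DKO TE the short median was -0.26 and the long median 0.08, a difference of -0.34, beside -0.02 for all genes, with 1 short gene called (Syt5). These are descriptions of 2 lists, with no test of the difference between them.

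**Figure D4:**
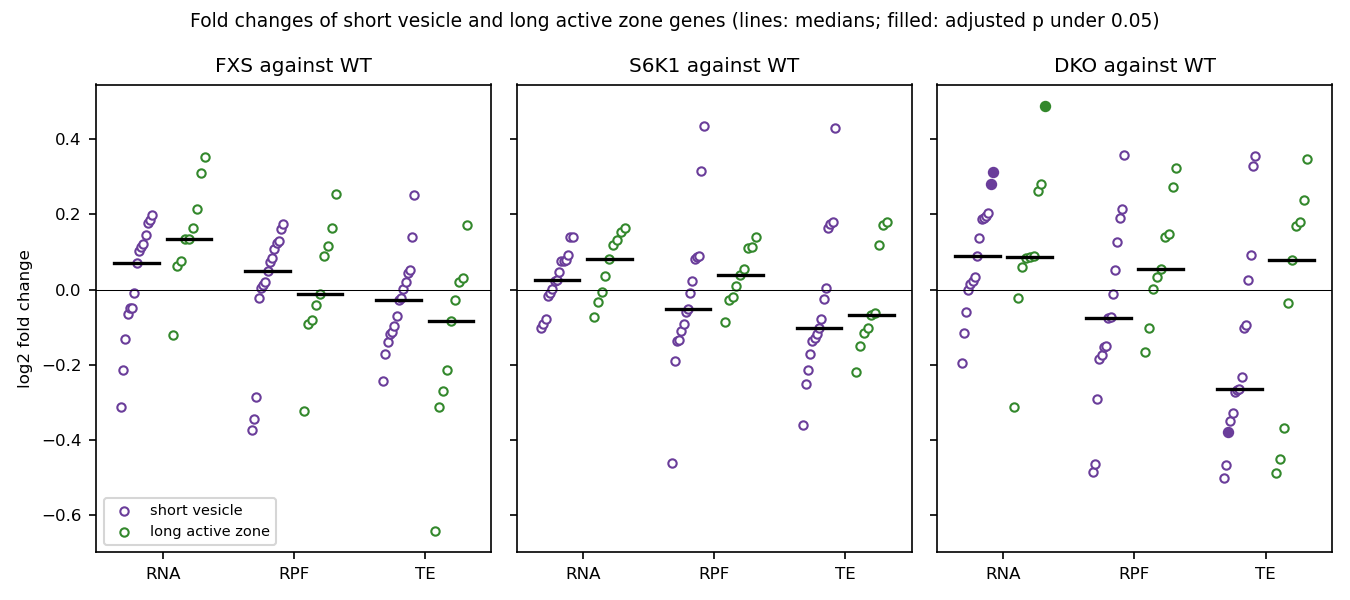
Log2 fold change (vertical axis) of each short vesicle gene (purple, 15 genes) and long active zone gene (green, 9 genes) in mRNA, footprints and TE, for each genotype against WT, with black lines at the medians and filled points for an adjusted p below 0.05. The medians lie apart most in DKO TE, at -0.26 for the short and 0.08 for the long list, and both lists spread on both sides of 0 there.

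The members of each list did not move as a block. In DKO TE the short genes ran from -0.50 (Syt2) to 0.36 (Rab3b), with 4 of 15 above 0, and the long genes from -0.49 (Ppfia3) to 0.35 (Unc13c), with 5 of 9 above 0. The difference between the lists rested on RPF batch 3. Within that batch the DKO library was below the WT library by a median of -0.39 over the short genes and above it by 0.42 over the long genes, whereas within batch 4 the medians were 0.06 and 0.01. Without batch 3 the difference between the list medians was 0.11 in footprints and 0.0298 in TE.

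For the other genotypes the list medians are likewise given without a test. FXS medians, short and long, were 0.07 and 0.14 in mRNA, 0.05 and -0.01 in footprints and -0.03 and -0.08 in TE. S6K1 medians were 0.02 and 0.08 in mRNA, -0.05 and 0.04 in footprints and -0.10 and -0.07 in TE. In mRNA the libraries of batch 5 set the lists apart within every genotype, since the short genes were at a median of -0.39 (WT), -0.35 (FXS), -0.48 (S6K1) and -0.23 (DKO) relative to the mean of all WT libraries, while in batches 6 to 8 they were at 0.04 to 0.19.

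**Figure D5:**
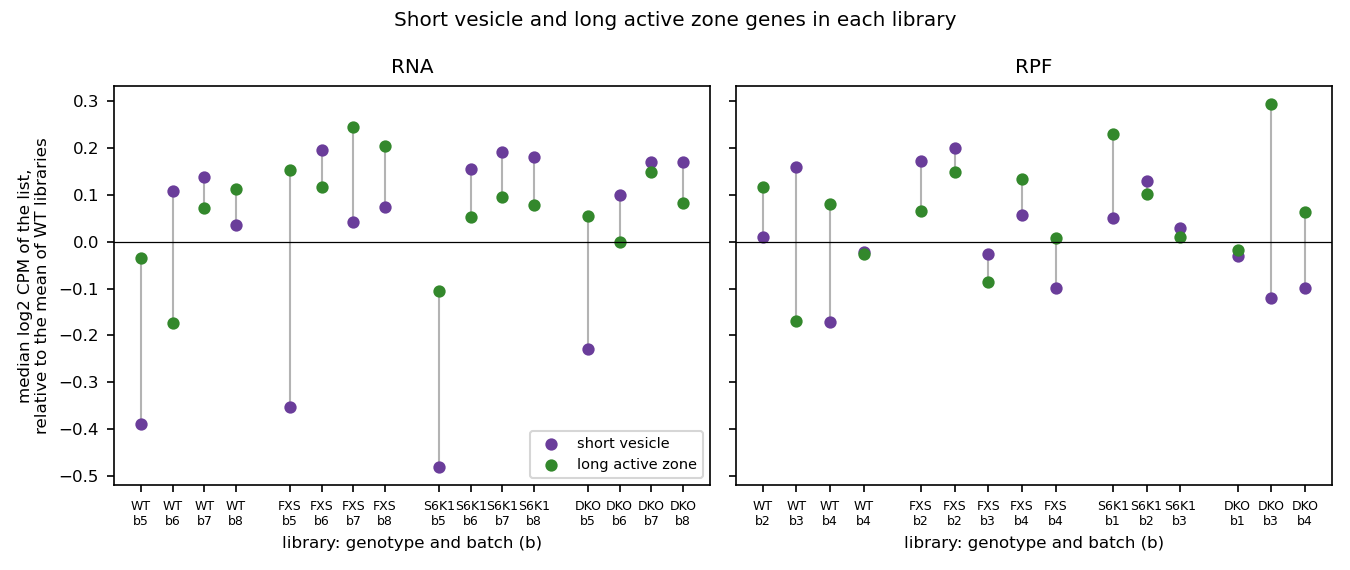
Median log2 CPM of the short vesicle genes (purple) and the long active zone genes (green) in each RNA and RPF library, relative to the mean of the WT libraries (vertical axis), with libraries ordered by genotype and labelled by batch. The RNA libraries of batch 5 have low short medians (-0.48 to -0.23) in all 4 genotypes, and in RPF the lists part in opposite directions in the WT and the DKO library of batch 3.

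A wider list of 62 presynaptic genes outside the 48 was read beside them, of which 60 were tested. In DKO mRNA 11 of the 60 rose and 1 fell, while 3.17% of all tested genes were called as higher and 2.06% as lower. The median was 0.11, against -0.0033 over all genes. Cplx3, a complexin found in deep layers of cortex, rose by 0.57 ± 0.110 and Syngr1, synaptogyrin-1 of the vesicle membrane, by 0.40 ± 0.0781 (edgeR adjusted p = 0.00790 for each), and Snap91, the clathrin adaptor AP180, by 0.30 ± 0.0679 (edgeR adjusted p = 0.0141). Doc2b, a calcium-binding protein of vesicle release, was the gene that fell, by 0.51 (edgeR adjusted p = 0.0114). The giant active zone scaffolds differed in their estimates: Bsn (bassoon) rose by 0.32 ± 0.0941 (edgeR adjusted p = 0.0489) and Pclo (piccolo) was at -0.08 ± 0.0672 (edgeR adjusted p = 0.517). In footprints 1 gene rose, Snap29 (0.51 ± 0.0981, edgeR adjusted p = 0.0378), beside 0.0287% of all genes called as higher. The median was 0.01, against -0.01 over all genes. In TE 4 fell, Cplx3 (-0.96), Syt13 (-0.59), Nrxn3 (-0.51) and Scamp5 (-0.46), beside 3% of all genes called as lower. The median was -0.09, against -0.02 over all genes.

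The authors' deposited tables of DKO against WT and FXS against WT were read for the same 48 genes. In mRNA of DKO the authors' deposited table had 14 members higher at an adjusted p below 0.05 (29.2%, against 8.12% of its genes in either direction), the 10 named above and Syt5, Stx1a, Rims1 and Unc13a. For FXS the authors' deposited table had 3 members higher in mRNA, Slc17a7, Unc13a and Ppfia3 (6.25%, against 1.45% of its genes). In footprints the authors' deposited tables had Syt2 and Sypl lower and Rab3b higher in DKO (6.25%, against 2.47% of genes), and Vamp1 and Rph3a lower in FXS (4.17%, against 1.07%). In TE the authors' deposited tables had 0 members in either comparison, beside 87 genes (0.725%) in DKO and 2 genes (0.0167%) in FXS, so the 5 TE calls in DKO and the 1 in FXS given above were not shared by them.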

How the data were processed

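Cortical mRNA (16 libraries) and ribosome footprints (15 libraries) were compared. The deposited tables hold raw counts per gene symbol, over coding sequence per the file names. Per the submitters' processing notes, cutadapt 2.0, Bowtie2, TopHat2 and RSEM were used with build mm10; their roles, the annotation and the assignment of reads shared by paralogs are not given in the sources used here. The authors' deposited comparison tables give, per the file headers, log2 fold changes and their adjusted p-values, both used here, beside a mean signal of unstated scale, standard errors and a score for the test, which were not used.

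Counts were tested here with edgeR 4.0.16 (R 4.3.3, quasi-likelihood F-test, filterByExpr, TMM), with batch and genotype as terms and all genotypes in each fit, for 14215 genes in RNA and 13953 in RPF. TE was the difference of both contrasts in 1 model with batch nested in assay (13654 genes). Adjusted p (Benjamini-Hochberg) below 0.05 over all tested genes counts as a call, and log2 CPM within batches used a prior count of 1. Alternatives used RLE factors, DESeq2 1.42.0, limma 3.58.1 voom, no filter, other sets of libraries and no batch term. The scripts were tested on simulated counts.

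RNA replicate numbers follow the batches of the labels. Deviations from the genotype mean correlated at a median of 0.20 over 24 pairs of RNA libraries in the same batch (21 above 0.1), against -0.11 over 72 other pairs, and at 0.24 over 20 RPF pairs (16 above 0.1), against -0.09 over 63. No replicate pair agreed within sampling noise (chi-square per degree of freedom at least 4.67 in RNA and 7.79 in RPF).

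Members and gene lists were chosen with earlier results of these data known. Values per library are given for members called in a comparison other than DKO against WT, for the 4 called members with the smallest adjusted p in DKO against WT (the 2 with the smallest p where fewer than 2 were called), and for the RIM, VAMP, complexin, vesicular glutamate transporter and Syt1 and Syt2 sets; further members were added after their values were seen. A rule on levels per length was not applied, since gene lengths were not used here.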

Additional observations from a re-analysis of the deposited data

Results flagged for a closer look

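Among 138 groups of 4 or 5 libraries of 20 genes and of the list medians, 13 had a library far from the others of its group by Dixon's criterion, where chance gives about 5%. All 13 were RNA libraries of batch 5, which is replicate 1 of each genotype. Syp mRNA was low in that library in DKO (593 CPM), S6K1 (433 CPM) and WT (499 CPM). Sv2a was low in the same 3 genotypes, at 234 CPM in DKO, 183 CPM in S6K1 and 205 CPM in WT, and Syt1 was low at 565 CPM in DKO and 397 CPM in S6K1. Syn1 was low in WT (463 CPM), Ppfia3 in S6K1 (256 CPM) and Rims1 in DKO (273 CPM), while Rims3 was high in FXS (52.9 CPM). The median of the short vesicle genes was low in S6K1, at -0.48 on the log2 scale relative to the WT mean. Since batch 5 held every genotype once and batch was a term of each model, the shift touches both sides of each mRNA comparison. Without batch 5, 5 of the 10 DKO mRNA calls were left, beside 3.38% of all genes.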

How the results depend on the processing

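No member called in the main fits changed sign under any alternative. Some differences between the short and long list medians did, among them that in DKO TE without RPF batch 3. Leaving out the batch term, which is also the replicate block of the RNA libraries, gave 0 calls in DKO mRNA (10 with it). It gave 0 in DKO TE (5 with it) and 0 in FXS TE (1 with it), and changed no other count. The shares of all genes called without it were 0.0141%, 0.0146% and 0.00732%, in that order. With DESeq2, DKO mRNA calls numbered 14 (beside 7.63% of all genes), and with limma voom 11 (beside 5.66%). They numbered 10 with RLE factors (5.24%) or no filter (3.9%) and 11 with only WT and DKO fitted (4.52%). DKO mRNA calls numbered 5 without RNA batch 5 (3.38% of all genes) and 1 to 13 when 1 library was left out. They were 1 without WT replicate 2 (0.496%) or DKO replicate 3 (0.699%) and 2 without WT replicate 3 (1.13%). They were 4 without DKO replicate 2 (2.11%), 6 without WT replicate 1 (2.53%) and 13 without WT replicate 4 (7.64%). FXS mRNA calls rose from 0 to 1 with RLE factors (0.295% of all genes), 3 with DESeq2 (1.44%), 1 with no filter (0.196%) and 5 with only WT and FXS fitted (3.2%). They were 0 to 1 when 1 library was left out (1 without FXS replicate 4, beside 0.601%). Footprint calls rose from 0 to 1 in FXS (0.817% of all genes) and to 3 in DKO (2.08%) with DESeq2 and were 0 in every other alternative. FXS TE calls were 3 with DESeq2 (1.13% of all genes). They were 0 with RLE factors, limma voom, no filter, only WT and FXS fitted, without RNA batch 5, without RPF batch 3 or with TMM factors of each assay alone. In those alternatives 0.00733% to 0.0176% of all genes were called. Leaving out 1 library gave 0 to 2. It gave 2 without RPF replicate 3 of WT (0.132%), RPF replicate 4 of FXS (0.242%) or RNA replicate 4 of FXS (0.0876%). It gave 1 without RPF replicate 1 of FXS (0.066%). DKO TE calls were 7 with DESeq2 (beside 8.56% of all genes), 6 with limma voom (4.12%) and 5 with TMM factors of each assay alone (5.01%). They were 3 with RLE factors (4.34%), 3 with no filter (2.85%), 1 with only WT and DKO fitted (2.86%), 2 without RNA batch 5 (2.51%) and 0 without RPF batch 3 (0.161%). Leaving out 1 library gave 0 to 8, with 8 without RPF replicate 1 (7.56%) or 3 (8.04%) of WT. It gave 3 without RPF replicate 4 of WT (3.85%) or RNA replicate 1 of DKO (3.31%) and 1 without RNA replicate 2 of DKO (1.48%). It gave 0 for the 5 libraries named in the report (0.0583% to 0.811%). The short minus long median in DKO TE was -0.34, 0.0298 without RPF batch 3 and -0.48 to -0.07 when 1 library was left out. S6K1, DKO against FXS and the interaction kept 0 calls in every alternative. The cause of these changes was not tested. The alternatives without RPF batch 3 and with TMM factors of each assay alone were chosen after seeing the data, and a split of the members by protein length was not run. With 3 to 5 libraries per genotype the calls rest on few libraries, DKO and WT footprints meet in only 2 batches, and an absent call does not show an absent change.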
